A study of Mus musculus with 4 samples.

Results

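Cxcl9, Cxcl10 and Cxcl11, the chemokines induced by interferons, and their receptor Cxcr3 were followed through cells of 4T1 tumours. They are 4 of the 55450 genes in the deposited single-cell matrix and were found by gene symbol. Interferon-gamma from activated lymphocytes induces all these ligands, Cxcl10 also responds strongly to type I interferon and NF-kB, and Cxcl11 responds to both interferons. The ligands bind Cxcr3, a receptor carried by activated effector T cells, natural killer (NK) cells and some dendritic cells, and draw these cells into inflamed tissue and tumours.

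The series holds 4 tumour samples from female BALB/c mice that received 4T1 cells, a mouse mammary carcinoma line of the same strain. For 2 samples the labels give an injection of PBS and for 1 the TIOs, a T cell-inspired oncolytic particle system carried in macrophage shells, all followed by 980 nm near-infrared light. The fourth sample, titled PBS, was put in no group, since its title and its protocol name different injections. Injection was on day 7, a daily light exposure of 5 min followed from day 8 to day 10, and tumours were taken on day 13 and, by the study's methods, sorted for CD45+ cells.

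The matrix tells 4 libraries apart by barcode suffix, but no label ties a suffix to a sample. Each library is therefore shown by its number, as a library of unknown treatment, treatments are not compared, and no p-values are given. All intervals are exact 95% intervals for counting error only and say nothing of the spread between mice. Of 33064 barcodes, 32133 had 300 or more detected genes and at most 15% mitochondrial UMIs (unique molecular identifiers, tags that count captured transcripts), with 6783 to 8889 cells a library. Marker gates put 26727 of them in 15 cell types, 1392 between monocytes and macrophages and 4014 in no gate; 2538 cells lay near a limit of the gates. Library 1 stood apart: 50.6% of its cells were tumour or epithelial cells, against at most 2.80% elsewhere, and its cells had a median of 11698 UMIs, against 2642 to 7182. Ptprc, the gene of CD45, was detected in 37.9% of its cells and in 52.2 to 77.4% of cells elsewhere, although the cells were sorted for CD45. There were 101 barcode sequences found in 2 or more libraries, which touch 196 of the cells kept. S100a8, a neutrophil transcript, had a UMI in 69.2% of cells outside the neutrophil gate, and the source of these UMIs was not tested.

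The ligand genes lie next to one another. On GRCm38, Cxcl9 (ENSMUSG00000029417) spans chr5:92321347-92328079, Cxcl10 (ENSMUSG00000034855) chr5:92346638-92348889 and Cxcl11 (ENSMUSG00000060183) chr5:92359544-92365485, all on the minus strand, whereas Cxcr3 (ENSMUSG00000050232) spans chrX:101731535-101734269, also on the minus strand. The annotation of the reference strain lists Cxcl11 as a pseudogene, polymorphic in GENCODE and transcribed in RefSeq, while the mice here were BALB/c. Cxcl10 and Cxcl11 both lie inside the span of Art3, on the opposite strand, and an exon of Cxcl10 overlaps one of Art3, which had 1284 UMIs in all.

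The promoters of Cxcl9 and Cxcl10 are shown because the levels of these ligands parted between libraries. RefSeq's GRCm38.p6 table held 3 of the 4 genes. Each line gives the 250 bases before RefSeq's start of the gene, 5′ to 3′ on the minus strand, with capitals on matches to 3 motifs searched on both strands: an interferon-stimulated response element (GAAA, any 2 bases and GAAA again), a gamma-activated site (TTCNNNGAA) and an NF-kB-like site (GGGNNTTCC).
Cxcl9, chr5:92328080-92328329: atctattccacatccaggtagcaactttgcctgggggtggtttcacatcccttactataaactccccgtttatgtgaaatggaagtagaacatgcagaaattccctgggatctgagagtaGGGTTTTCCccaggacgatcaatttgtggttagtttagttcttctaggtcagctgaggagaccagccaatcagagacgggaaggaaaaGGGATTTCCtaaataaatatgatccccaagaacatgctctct
Cxcl10, chr5:92348890-92349139: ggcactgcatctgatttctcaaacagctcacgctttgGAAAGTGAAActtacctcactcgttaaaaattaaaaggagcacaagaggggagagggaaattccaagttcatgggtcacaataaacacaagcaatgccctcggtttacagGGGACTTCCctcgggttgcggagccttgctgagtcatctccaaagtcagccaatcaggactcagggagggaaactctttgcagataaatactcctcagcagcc
The Cxcl10 window held GAAAGTGAAA 204 to 213 bases before the start and 1 NF-kB-like match 95 to 103 bases before it. The Cxcl9 window held 2 NF-kB-like matches, 122 to 130 and 34 to 42 bases before the start, and no match to the element. Neither ligand window held a match to the gamma-activated site. Cxcr3 had no match to any of the motifs in its window, at chrX:101734148-101734397; RefSeq's start of this gene lies inside the span given above, so part of the window does too. Among all 32851 promoters of the same length, 2.98% held the element, 7.02% the gamma-activated site and 4.98% the NF-kB-like site. No match overlapped another, and a match is a string of letters, not a tested binding site. Only these exact strings were searched, so sites with other letters or spacing are not counted or put in capitals.

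Across all cells, Cxcl10 was detected widely and the other members in few cells. Cxcl10 had 106830 UMIs in 12391 cells, or 38.6% of all cells. Cxcl9 had 18495 UMIs in 2925 cells, Cxcl11 7546 in 1885 and Cxcr3 1248 in 925. The ligands were unevenly spread: 50% of the Cxcl9 UMIs lay in 182 cells, 50% of the Cxcl11 UMIs in 147 and 50% of the Cxcl10 UMIs in 1022. Of the 321 cells with most Cxcl9, 119 were macrophages and 95 were tumour or epithelial cells, while fibroblasts made up 129 of the 321 cells with most Cxcl10. Cells were ranked here by UMIs at their own depth. Over all libraries, the median was 27931 UMIs in fibroblasts, 18886 in tumour or epithelial cells, 7874 in macrophages and 7687 in monocytes. By library, 82.9% of Cxcl9 UMIs (82.3 to 83.4%) and 70.5% of Cxcl11 UMIs (69.4 to 71.5%) were in library 1, whereas Cxcl10 was led by library 4 with 41.0% (40.7 to 41.2%) and library 1 held 24.7%.

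Cxcl9, the ligand most closely tied to interferon-gamma, was highest in endothelial cells in libraries 1, 2 and 3, and in fibroblasts in library 4, among the types with 20 or more cells. In libraries 3 and 4 the interval of the leading type overlapped that of the next, fibroblasts and type 1 dendritic cells. In endothelial cells it stood at 1762 CPM (counts per 1000000 UMIs; 1646 to 1884) in library 1, 67.1 (59.7 to 75.2) in library 2, 11.3 (5.64 to 20.2) in library 3 and 13.5 (4.95 to 29.3) in library 4. Library 1 was high and the intervals of the other libraries lay far below it, but its value rests on 58 cells, 1 of which held 30.5% of the 857 UMIs. In the 4 libraries, 67.2, 25.8, 4.44 and 11.1% of endothelial cells had a UMI; the last of these libraries had only 18 endothelial cells.

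In macrophages, Cxcl9 was at 372 CPM (362 to 382) in library 1, 5.91 (3.99 to 8.44) in library 2, 0 of 127 cells in library 3, which allows a share of up to 2.36% of cells (3 counts of the total), and 1.46 (0.537 to 3.18) in library 4. Monocytes, their blood-borne precursors, ran from 405 CPM in library 1 to 21.4, 0.860 and 6.95 CPM in the others. Fibroblasts gave 157, 32.8, 7.15 and 19.97 CPM in libraries 1 to 4 and held 71.5 to 77.5% of the Cxcl9 UMIs of libraries 2, 3 and 4. Library 1 was the highest in each of these 4 types, followed by libraries 2, 4 and 3. The intervals of libraries 3 and 4 overlapped in endothelial cells, and that of library 3 overlapped both others in macrophages. The order of libraries 2 to 4 also rests on few cells. In monocytes of library 4, 1 cell held 59.3% of the 189 UMIs. This share was 52.9% of 51 in monocytes and 53.3% of 30 in macrophages of library 2. In endothelial cells of libraries 3 and 4 it was 81.8% of 11 and 83.3% of 6. In fibroblasts 1 cell held at most 17.3%. Below endothelial cells in library 1, type 1 dendritic cells (489 CPM, 428 to 557), monocytes (359 to 456) and macrophages followed, with intervals of neighbours that overlapped. In tumour or epithelial cells of library 1 the level was 78.2 CPM (76.2 to 80.1), and these 3968 cells held 40.2% of its Cxcl9 UMIs. T cells, taken as the background class for the ligands, had a Cxcl9 UMI in 7.12% of cells in library 1 (median 3997 UMIs), against 43.6% of macrophages (median 10126 UMIs); with each cell thinned to 1000 UMIs, and shallower cells left out, the shares were 1.88% of 373 cells and 16.9% of 1256 cells.

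Cxcl10 did not follow Cxcl9 between libraries. In monocytes it was at 430 CPM (382 to 483) in library 1, 245 (225 to 266) in library 2, 898 (867 to 930) in library 3 and 669 (660 to 679) in library 4, with intervals that did not overlap. Monocytes led the order in libraries 3 and 4, clear of the next type, whereas in library 1 endothelial cells (721 CPM), macrophages (695 CPM) and CD4 T cells (695 CPM) led and could not be told apart by their intervals. In library 2 macrophages (390 CPM), type 1 dendritic cells (382 CPM) and pericytes or smooth muscle cells (376 CPM) led, also with overlapping intervals. Neutrophils, the most numerous gate with 9024 cells, gave 161, 250, 472 and 252 CPM in libraries 1 to 4, so library 3 was high there as it was in monocytes. Fibroblasts gave 166, 280, 179 and 383 CPM, with library 4 high, and held 37.0 to 53.4% of the Cxcl10 UMIs of libraries 2 to 4. The tumour or epithelial cells were the lowest of the ordered types in library 1, at 151 CPM (148 to 154), with an interval that overlapped that of fibroblasts, yet held 45.1% of its Cxcl10 UMIs by their number.

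Cxcl10 UMIs were also common in the background class. In libraries 1 to 4, 31.7, 28.9, 21.3 and 32.3% of T cells had a UMI, and after thinning 16.6, 10.98, 9.30 and 9.94%, against 26.8, 20.7, 20.9 and 19.8% of macrophages. The 31 CD4 T cells of library 1, at 695 CPM (74 UMIs, 77.0% of them in 1 cell), belong to this class. It therefore gives no separate background for them. Nor is the class a floor: in library 1 its CD8 T cells had 268 CPM, against 166 in fibroblasts and 151 in tumour or epithelial cells. Whether T cells made the transcript was not tested. Thinned neutrophils, at 8.40, 9.19, 12.4 and 11.9%, were below or near the share of thinned T cells of the same library in libraries 1 and 2 and above it in libraries 3 and 4. In library 4 the T cell share came from only 161 cells.

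Cxcl11 was the scarcest ligand and resembled Cxcl9 in its concentration in library 1. Endothelial cells led there at 403 CPM (348 to 463, from 196 UMIs), followed by monocytes at 213 CPM (180 to 251) and type 1 dendritic cells at 135 CPM (103 to 172). This order rests on few cells: 14 of 58 endothelial cells, 22 of 128 monocytes and 8 of 30 type 1 dendritic cells had a Cxcl11 UMI. Monocytes led in libraries 2, 3 and 4, at 42.4, 41.6 and 29.6 CPM, with intervals above the next type in libraries 2 and 4. Macrophages of library 1 had 82.4 CPM (77.7 to 87.3), against 5.32, 26.0 and 4.14 CPM in the others, and tumour or epithelial cells 38.4 CPM (37.1 to 39.8) in library 1 and 1.10 CPM (0.550 to 1.97) in library 2. Of T cells, 4.22% had a Cxcl11 UMI in library 1 and 0.610 to 2.41% in the others. Library 1 was thus the highest for Cxcl11 in endothelial cells, monocytes, macrophages and, of the libraries that held them, tumour cells.

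**Figure D1:**
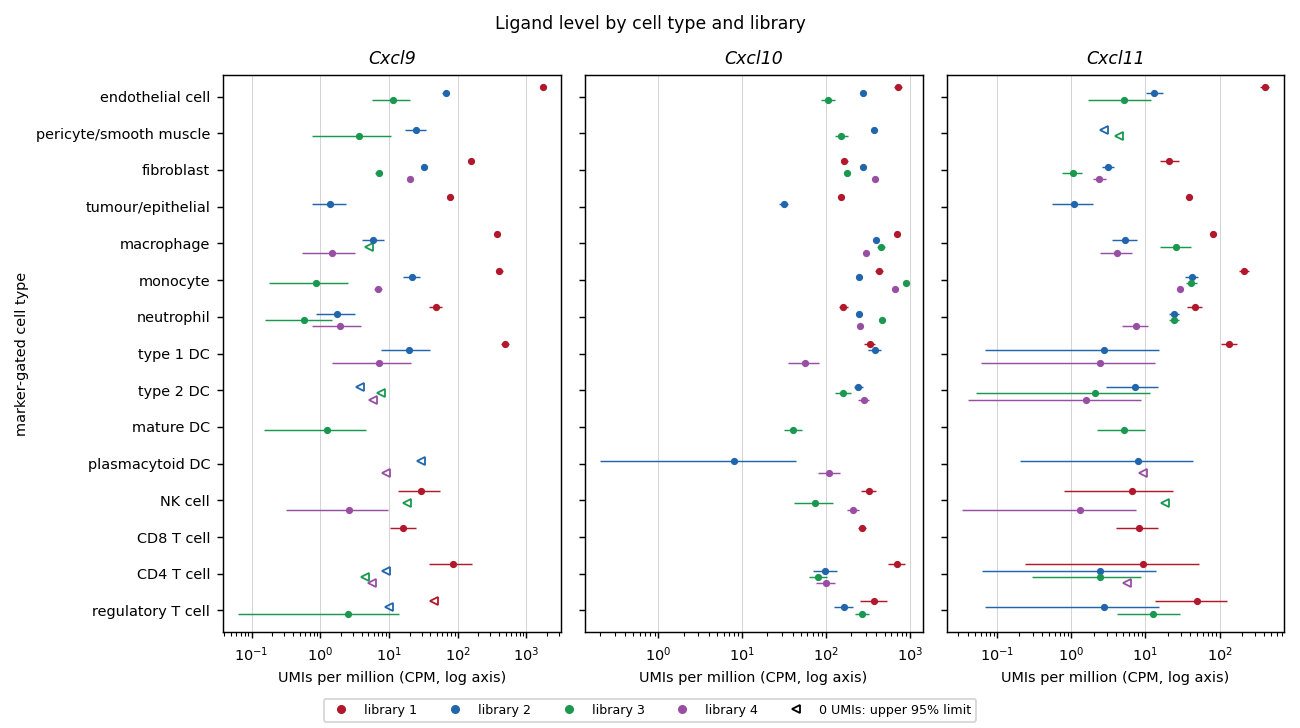
Level of each ligand (CPM, log axis) in marker-gated cell types with 20 or more cells, by library; points are levels, bars exact 95% Poisson intervals, open triangles the upper limit where no UMI was found. Cxcl9 of library 1 lies to the right of the other libraries in endothelial cells (1762 CPM), monocytes, macrophages, fibroblasts and neutrophils, but had no UMI in regulatory T cells, while the Cxcl10 points of the libraries are mixed.

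The balance of the ligands was compared between libraries as Cxcl9 UMIs in percent of Cxcl9 and Cxcl10 UMIs, since capture differs between genes and a level of 1 gene cannot be set against that of another. Over all cells this was 36.8% in library 1 (36.3 to 37.2%), 8.03% in library 2, 2.20% in library 3 and 2.43% in library 4. Inside each of 8 types (neutrophils, monocytes, macrophages, type 1 dendritic cells, T cells, tumour cells, fibroblasts and endothelial cells), library 1 lay above the intervals of all other libraries with a value. Macrophages gave 34.9, 1.49, 0 and 0.483% in libraries 1 to 4 and fibroblasts 48.6, 10.5, 3.85 and 4.95%. The gap between library 1 and the others was therefore present inside gates as well as in the mixture. It was also present in T cells, the background class for the ligands, at 4.93% in library 1 against 0 to 0.324% in the others. The part of free RNA in the gap was not tested. Inside library 1 the share ran from 4.93% in T cells (3.44 to 6.83%) through 23.1% in neutrophils to 70.9% in endothelial cells (68.3 to 73.5%), so the UMIs of both genes were not in 1 ratio across types.

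**Figure D2:**
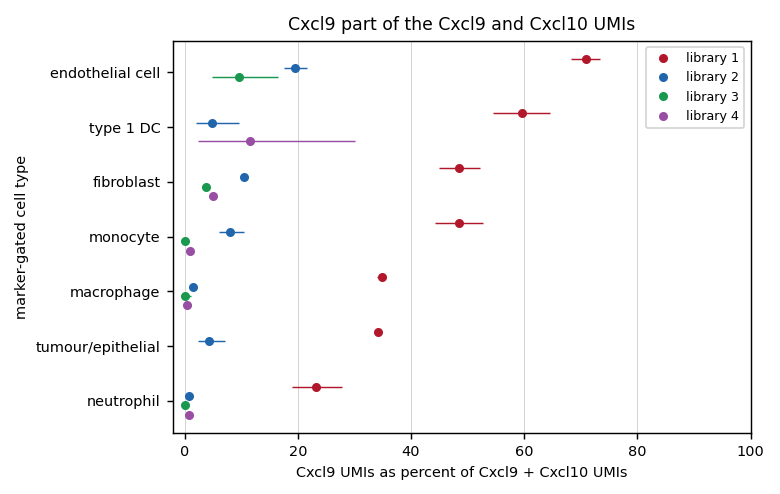
Cxcl9 UMIs as a percent of Cxcl9 plus Cxcl10 UMIs in 7 cell types, by library; points are shares and bars exact 95% binomial intervals, with units of 20 or more cells. Library 1 is the farthest right in every type, from 23.1% in neutrophils to 70.9% in endothelial cells, and no other library passes 19.5%.

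Upstream of the ligands, the interferon transcripts were scarce. Ifng, which encodes interferon-gamma, had 1941 UMIs in library 1 (17.9 CPM over all cells), 93 in library 2 (1.15 CPM), 152 in library 3 (2.20 CPM) and 494 in library 4 (5.13 CPM). The CD8 T cells of library 1, which numbered 240, held 1314 of these at 972 CPM, with a UMI in 75.8% of cells. Ifnb1, which encodes interferon-beta, was at 1.17 to 3.05 CPM over all cells and was highest in type 1 dendritic cells of library 2, at 74.2 CPM from 27 UMIs. Library 1 thus had both the most Ifng and the most Cxcl9, but with 4 libraries of unknown treatment, and with tumour cells and depth that move with library 1, their part in the result was not tested. Over all cells, Irf1, an early target of interferon-gamma, stood at 241, 144, 138 and 85.3 CPM in libraries 1 to 4.

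Some single cells held more than 1 ligand, counted here at their own depth. Of 13856 cells with a UMI of any ligand, 11073 had 1 ligand, 2221 had 2 and 562 had all 3. Of these 562, 496 were in library 1, and by type 283 were tumour or epithelial cells and 130 macrophages. Cxcl10 alone was the most frequent combination, in 9837 cells, against 861 with Cxcl9 alone and 375 with Cxcl11 alone. In the other direction, 62.7% of Cxcl9-positive and 68.0% of Cxcl11-positive cells also had Cxcl10, while 14.8% of Cxcl10-positive cells had Cxcl9, a figure that was 40.6% in library 1 and 4.57 to 8.77% in the others.

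Double detection was then set against the product of the shares inside each cell type and library, the number that would be met if detection of the ligands were unrelated. Cells with both Cxcl9 and Cxcl10 numbered 1828, or 1.29 times that product (1.24 to 1.35). The ratio was 1.28, 1.59, 1.43 and 1.12 in libraries 1 to 4, and in library 4 its interval reached below 1 (0.974 to 1.28). It cannot pass 1 divided by the larger share, so ratios at unlike detection rates are not on 1 scale. Fibroblasts of library 4 had Cxcl10 in 950 of 1116 cells, 94.4% of Cxcl9-positive and 83.4% of Cxcl9-negative ones, which leaves little room above 1. Cells that differ in depth give some excess by themselves; at 1000 UMIs a cell the pooled ratio was 1.82 (1.58 to 2.08), from 207 cells. For pairs with Cxcl11, the rarest ligand, the limit on the ratio differs. Cxcl9 with Cxcl11 gave 1.86 (1.737 to 1.9996) and 3.72 thinned (2.98 to 4.58). Cxcl10 with Cxcl11 gave 1.52 (1.44 to 1.60) and 3.03 thinned (2.64 to 3.46). Each of the 3 pairs thus exceeded the product at both depths when pooled, and thinned ratios of libraries 3 and 4 for Cxcl9 with Cxcl10 rest on 4 and 10 cells.

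Neutrophils and tumour cells gave the following values by type. Thinned neutrophils with Cxcl10 also had Cxcl11 in 6.62% of cells in library 2 and 6.28% in library 3, against 0.707 and 0.503% of those without, which is 5.29 and 5.15 times the product from 18 and 23 cells. In thinned tumour or epithelial cells of library 1, 20.6% of Cxcl9-positive cells had Cxcl10, against 7.28% of Cxcl9-negative ones, or 2.59 times the product from 41 cells. In macrophages of the same library this ratio was 1.41 (80 cells, 37.7 against 24.5%). Of endothelial cells at their own depth, 61.5% of Cxcl9-positive cells had Cxcl10 in library 1 and 91.8% in library 2, against 15.8 and 44.0% of the negative ones.

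**Figure D3:**
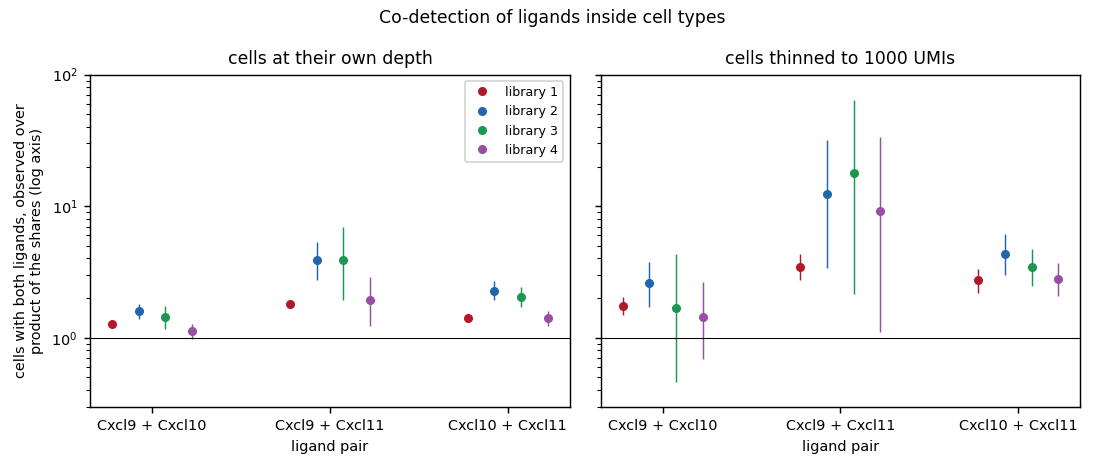
Cells with both ligands of a pair over the product of the shares inside cell types (log axis), by library, for cells at their own depth (left) and thinned to 1000 UMIs (right); bars are exact 95% Poisson intervals and the line marks 1. All points lie above 1, and the intervals of Cxcl9 with Cxcl10 reach below 1 in library 4 at own depth and in libraries 3 and 4 after thinning.

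To see what else Cxcl10-positive cells carried, cells with and without a Cxcl10 UMI were compared inside a type and library, thinned to 1000 UMIs, wherever each side had 100 or more cells. Genes with at least 50 CPM over positive and negative cells together were kept, and a gene past 2-fold on log2(CPM + 10) was counted; with 1 sample there is no test. Of 12 type I interferon-stimulated genes, the antiviral genes that answer type I interferon, 9 were abundant enough in neutrophils. Past 2-fold higher in Cxcl10-positive neutrophils were 7 of 9 in library 2 (background 1.48% of genes tested higher and 0.463% lower), 7 of 9 in library 3 (1.72 and 0.181%) and 6 of 9 in library 4 (0.882 and 0.573%), with median log2 differences of 1.52, 1.39 and 1.06 against -0.06, -0.06 and -0.03 over all genes. With only genes that reached the minimum in negative cells, the counts were 6 of 8, 7 of 9 and 6 of 9. Rsad2, the antiviral enzyme viperin, was at 4949 CPM in positive and 1653 CPM in negative neutrophils of library 2 and at 6139 and 2263 CPM in library 3. Ifit2, an RNA-binding antiviral protein, was at 598 and 145 CPM in library 3, and Cmpk2 at 484 and 156 CPM in library 4. As given above, the share of thinned neutrophils with Cxcl10 was below that of T cells in library 2 and above it in libraries 3 and 4. No doublet caller was run, and whether the positive neutrophils made the transcript was not tested.

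The guanylate-binding and IRG GTPases, which attack vacuoles of intracellular microbes and answer interferon-gamma, differed between units. Past 2-fold higher were 5 of 5 tested in neutrophils of libraries 2 and 3 and 2 of 6 in library 4, where both had under 50 CPM in negative cells and so passed the filter only through the positive ones; of the 4 that reached it in negative cells, 0 were past 2-fold. In libraries 2 and 3, 4 of 4 and 5 of 5 that reached it there were past 2-fold. The neutrophil background was 1.48, 1.72 and 0.882% of genes tested higher in libraries 2, 3 and 4. The count past 2-fold was 1 of 4 in monocytes of library 3 and of library 4 (background 1.64 and 0.411% higher). It was 0 of 6 and 0 of 1 in macrophages of libraries 1 and 2 (0.383 and 0.611%), and 0 of 2 in the cells between (0.167%). In fibroblasts of libraries 2 and 4 it was 1 of 1 (0.294 and 0.379%), each time a gene under the minimum in negative cells. Gbp5 was at 283 against 77.4 CPM in neutrophils of library 2 and 232 against 73.5 CPM in those of library 3. None of the 7 NF-kB genes tested was past 2-fold in neutrophils of libraries 2 to 4. Their median log2 differences were 0.09, 0.19 and 0.25, against -0.06, -0.06 and -0.03 over all genes. Above a difference of 0 lay 6, 7 and 6 of them. The 7 genes tested of the interferon-gamma axis itself had medians of 0.35, -0.06 and 0.24. Of these, 2, 1 and 1 were past 2-fold higher in libraries 2, 3 and 4 (background 1.48, 1.72 and 0.882% of genes tested higher).

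In monocytes of library 4, where 882 positive cells made the largest such group, 4 of 12 type I genes were past 2-fold higher (background 0.411% higher, 0.0342% lower), led by Rsad2 at 1963 against 669 CPM and Cmpk2 at 290 against 101 CPM; with another random draw for thinning the count was 6. The 10 genes with the largest differences there were Hbb-bs, Rsad2, Cmpk2, Ifit1bl1, Ccl5, G530011O06Rik, Ifit2, Ifit3b, Gbp2b and Ifit1, a list not limited to genes at the minimum in negative cells. Hbb-bs is a red-cell haemoglobin transcript, at 392 against 30.0 CPM, so it passed the 50 CPM minimum only through the positive cells. In neutrophils of the same library it was at 32.0 CPM in 219 positive and 413 CPM in 1626 negative cells. Library 3 monocytes gave 5 of 12 (background 1.64% higher, 3.66% lower). Among the cells between monocytes and macrophages of library 4, 1 of 11 type I genes, Rsad2, was past 2-fold higher (background 0.167% higher, 0.502% lower). In macrophages of library 1, 2 of 6 type I genes and 2 of 6 NF-kB genes, Icam1 (283 against 111 CPM) and Tnf (449 against 215 CPM), were past 2-fold higher (background 0.383% higher, 0.191% lower); of the type I genes at the minimum in negative cells, 1 of 5 was. Macrophages of library 2 gave 1 of 6 and 1 of 7 for the same lists (background 0.611% higher, 1.96% lower), again with Tnf, at 617 against 285 CPM. The median log2 difference of the NF-kB genes was 0.43 and 0.14 in macrophages of libraries 1 and 2, 0.38 and 0.27 in monocytes of libraries 3 and 4, and -0.17, 0.17 and 0.28 in fibroblasts of libraries 2, 3 and 4, so the types were not set apart by it.

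**Figure D4:**
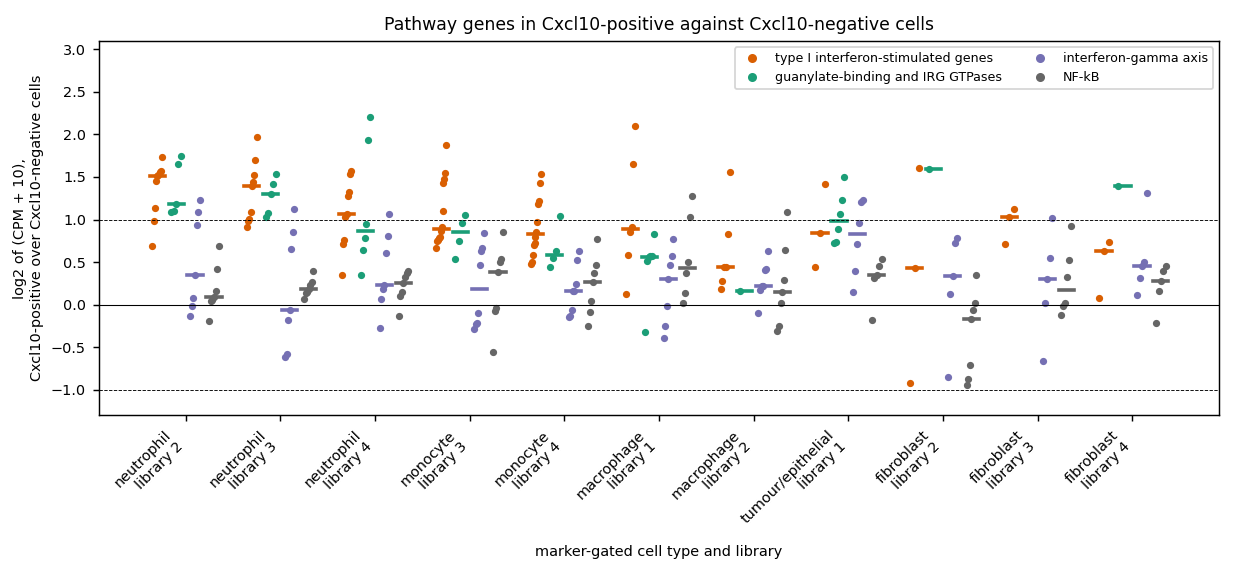
Log2 ratio of (CPM + 10) in Cxcl10-positive over Cxcl10-negative cells, thinned to 1000 UMIs, for genes of 4 lists (points; bars are medians) in 11 units of a cell type and library; dashed lines mark 2-fold. Type I interferon-stimulated genes have medians of 1.06 to 1.52 in the 3 neutrophil units, while the NF-kB medians there are 0.09 to 0.25.

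In fibroblasts of libraries 2, 3 and 4, 1, 2 and 0 of 3 type I genes were past 2-fold higher in Cxcl10-positive cells (background 0.294, 0.983 and 0.379% higher, and 1.77, 2.69 and 0.79% lower). With only genes at the minimum in negative cells, library 2 gave 0 of 2. The genes that follow were named after their values were seen. Apod, a secreted lipid carrier, was at 1149 against 563 CPM in library 2, 766 against 1213 CPM in library 3 and 120 against 50.1 CPM in library 4, so its direction changed between libraries. Inhba, a subunit of activin, was at 49.8 against 248 CPM in library 2, 136 against 198 CPM in library 3 and 18.2 against 81.9 CPM in library 4. Spp1, osteopontin, was at 172 against 974 CPM, 623 against 1780 CPM and 749 against 1128 CPM in the same order. These last genes were lower in positive cells of each library, but past 2-fold only in libraries 2 and 4 for Inhba and 2 and 3 for Spp1. Tagln, an actin-binding protein of contractile cells, was at 7.66 against 74.96 CPM in library 2, 32.5 against 35.5 CPM in library 3 and 18.2 against 17.1 CPM in library 4. Positive cells numbered 261, 154 and 275 in these libraries, each thinned, so low levels in them rest on few UMIs. Inhba in libraries 2 and 4 and Tagln in library 2 were under the CPM minimum in positive cells. They passed the filter there only through the negative cells. In libraries 3 and 4, Tagln was under the minimum on both sides.

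Cells split by Cxcl9 could be compared in library 1 alone. In macrophages, 212 positive cells stood against 1044 negative ones. Serpina3g (259 against 46.9 CPM), Cxcl11 (226 against 45.02 CPM), Ifit2, Gbp2b, Acod1, Ly6a, Ccl5, Plac8, Fgl2 and Gbp4 differed most, with a background of 0.459% higher and 1.03% lower. Serpina3g and Cxcl11 were under 50 CPM in negative cells, so they passed the filter only through the positive ones. Of the guanylate-binding and IRG GTPases, 1 of 6 was past 2-fold higher there. Acod1 makes itaconate in activated macrophages. In tumour or epithelial cells, 5 of 6 guanylate-binding and IRG GTPases were past 2-fold higher in the 199 Cxcl9-positive cells than in 3668 negative ones (background 0.64% higher, 0.64% lower), or 4 of 5 with only genes at the minimum in negative cells, Gbp2 at 377 against 137 CPM and Igtp at 286 against 110 CPM. Cxcl10 itself was at 719 against 123 CPM between these tumour cells. In Cxcl10-positive tumour cells the count was 3 of 6 (background 0.356% higher, 0.284% lower), and Irf1 was at 578 against 244 CPM.

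Over 39 units of a cell type and library with 20 or more cells, the genes whose log2(CPM + 10) went most closely with each member were listed among 7671 genes, as a description; units share libraries, depth and free RNA. For Cxcl9 they were Gm4951 (Pearson r = 0.88), Cxcl11 (0.79), Iigp1 (0.79), Serpina3g (0.77) and F830016B08Rik (0.76). For Cxcl11 they were Cxcl9, Gm4951, Sat1, Klf6 and Gbp2b, from 0.79 down to 0.67. Cxcl10 had weaker partners, Srgap2 (0.65), Pnp, Sqor, Tcn2 and Arf2 (0.60); Cxcl11 was 105th in its list (0.47) and Cxcl9 345th (0.39). The profile of Cxcl9 thus resembled that of Cxcl11 more than that of Cxcl10. Genes close to Cxcr3 were Cyfip2 (0.87), Parvg (0.84), Tbc1d10c (0.83) and Ptprcap (0.81).

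Cxcr3, the receptor, was read against fibroblasts, which should lack it: 0.372 to 0.806% of them had a UMI in the 4 libraries, at 0.163 to 0.439 CPM and medians of 13124 to 37293 UMIs. T cells were above this in all libraries, at 26.1 CPM (19.2 to 34.6), 10.4 (4.78 to 19.8), 39.9 (31.3 to 50.03) and 31.6 (21.3 to 45.1) in libraries 1 to 4, with a UMI in 10.0, 6.02, 12.2 and 14.0% of cells and medians of 3287 to 5883 UMIs. The libraries overlapped, except that library 2 lay below library 3 and library 4. By subset, CD4 T cells had 56.3, 17.2, 47.0 and 26.0 CPM from 6, 7, 39 and 17 UMIs, and regulatory T cells 99.4 CPM in library 1 (8 UMIs), 25.2 CPM in library 3 (10 UMIs) and 0 UMIs in 23 cells of library 2. T cells were also split by Cxcr3 with all libraries pooled and at their own depth, 120 with it and 948 without. The background was 0.444% of genes higher and 0.698% lower. Past 2-fold higher were 3 of 4 type I interferon-stimulated genes tested, or 2 of 3 with only genes at the minimum in negative cells. Rsad2, at 161 against 43.6 CPM, was under the 50 CPM minimum in negative cells. It passed the filter only through the positive ones. Libraries and depth are mixed in this split. The 240 CD8 T cells of library 1, which carried most Ifng, had 10.4 CPM (5.66 to 17.4), below the interval of the CD4 T cells (20.7 to 123).

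Innate lymphocytes and some dendritic cells carried Cxcr3 as well. NK cells had 23.0 CPM (9.26 to 47.5), 24.6 (7.97 to 57.3) and 56.9 (41.2 to 76.7) in libraries 1, 3 and 4. Plasmacytoid dendritic cells, the main makers of type I interferon, led the order in library 4 at 77.1 CPM (52.4 to 109), with a UMI in 29.5% of 61 cells, and had 47.7 CPM (17.5 to 104) in library 2. Type 1 dendritic cells, which present antigen to CD8 T cells, had 19.2 CPM (8.80 to 36.5), 52.2 (31.5 to 81.6) and 53.2 (33.4 to 80.6) in libraries 1, 2 and 4, with a UMI in 20, 39.1 and 47.8% of cells at medians of 14553 to 19566 UMIs. The lymphocyte and dendritic types that led the order in each library overlapped with their neighbours. Mature dendritic cells, which carry Ccr7 instead, had 0 UMIs in 186 cells of library 3, which allows a share of up to 1.61% (3 counts of the total), and type 2 dendritic cells 0 to 3.15 CPM.

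An unlooked-for place was the tumour or epithelial gate of library 1, where Cxcr3 was at 8.08 CPM (7.47 to 8.73), 637 UMIs in 472 of 3968 cells (11.9%), against 0.439 CPM (0.0111 to 2.44) in fibroblasts and 1.08 CPM (0.605 to 1.78) in macrophages of the same library. This gate held 85.7% of the Cxcr3 UMIs of library 1. At 1000 UMIs a cell the share was 0.543% of 3867 cells, against 0.239% of macrophages. Of the 472 cells, 113 had 2 or more Cxcr3 UMIs. A UMI of Cd3d, Cd3e, Cd3g, Trac or Trbc2 was found in 93 of the 472 and in 539 of all 3968 cells of the gate. Cells with such a T cell UMI were deeper, with a median of 22320 UMIs against 17469. Without them the level was 7.90 CPM (7.23 to 8.61). In library 2, 15 of 241 tumour or epithelial cells had a Cxcr3 UMI (2.004 CPM, 1.22 to 3.095). A T cell UMI was found in 10 of the 15 and in 85 of the 241. Without cells with a T cell UMI the level there was 1.30 CPM (0.522 to 2.68).

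With tumour cells of library 1 thinned to 10000 UMIs, 205 had Cxcr3 and 2956 did not. Past 2-fold higher in the positive cells were 5 of 2780 genes (background 0.18% higher, 0.036% lower), Ube2c, Ly6c1, Hist1h2ap, Cxcl9 and Pttg1. Of 7 tested among 12 cell-cycle genes, a list drawn up after these values were seen, 1 was past 2-fold, and their median log2 difference was 0.76 against 0.01 over all genes. Since the list came after these values, this median is no separate evidence about this split. For the same list the median was 0.77 in Cxcl9-positive tumour cells (8 of 8 tested above 0) and -0.90 in Cxcr3-positive T cells (3 of 9 past 2-fold lower). In Cxcl10-positive cells of library 1 it was 0.41 in tumour cells (7 of 8 above 0) and 0.62 in macrophages (7 of 7). In Cxcl9-positive macrophages of library 1 it was -0.53, and in Cxcl10-positive fibroblasts of libraries 2, 3 and 4 it was -0.59, -0.19 and -0.17. Mki67, a marker of cycling cells, had a UMI in 27.8% of positive cells (21.8 to 34.5%) and 18.3% of negative ones (16.9 to 19.7%). For Top2a the shares were 41.0% (34.2 to 48.0%) and 33.3% (31.6 to 35.1%), with overlapping intervals. Ube2c gave 35.6 against 23.7% and Birc5 35.6 against 26.7%, with intervals that did not overlap. Cxcl9 was at 142 against 64.3 CPM between positive and negative cells. At their own depth, 406 of the 564 Cxcr3-positive cells of library 1 also had a ligand UMI, against 51 of 94, 24 of 103 and 74 of 164 in libraries 2, 3 and 4. Of all cells, 55.9, 31.4, 33.0 and 50.9% had a ligand UMI in libraries 1 to 4. In library 1, 472 of the 564 were in the tumour or epithelial gate, whose cells were deep. Thinned to the depth used for the ligands, the counts were 11 of 48, 1 of 17, 2 of 38 and 4 of 41. Of all cells thinned so, 19.5, 13.6, 14.8 and 22.5% had a ligand UMI. Whether receptor and ligand go together beyond depth and cell type was not tested.

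**Figure D5:**
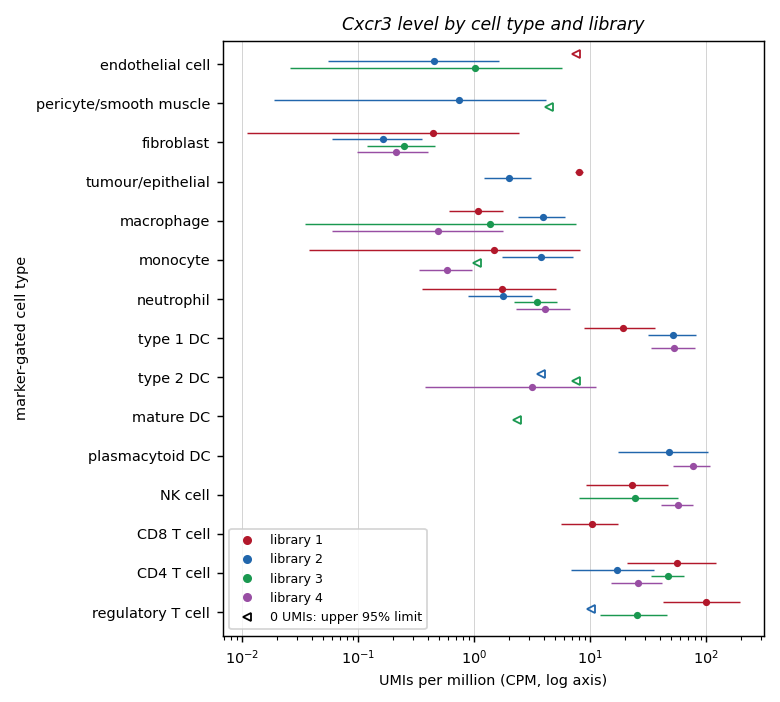
Cxcr3 level (CPM, log axis) by marker-gated cell type with 20 or more cells and library; points, bars and triangles as for the ligands. Lymphocytes, type 1 and plasmacytoid dendritic cells lie above 10 CPM wherever a UMI was found, fibroblasts below 0.5 CPM, and tumour or epithelial cells of library 1 at 8.08 CPM.

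The lists also held genes that act around the receptor. Dpp4, a protease that trims the ligands and weakens them, was highest in type 1 dendritic cells of libraries 2 and 4, at 165 and 157 CPM with a UMI in 91.3 and 82.6% of cells, a gate that also carried Cxcr3. Over all cells Dpp4 was at 2.56, 22.2, 8.82 and 16.4 CPM in libraries 1 to 4. Levels over all cells carry the mix of types, and 50.6% of the cells of library 1 were tumour or epithelial cells. Pf4, a platelet and macrophage chemokine of the same family, reached 18546 CPM in macrophages of library 3 and was at 82.3 CPM over all cells in library 1, against 1140 to 3207 CPM in the others.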

How the data were processed

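The authors deposited raw UMI counts per gene and barcode for 4 joined libraries, made with Cell Ranger (version 3.0.2 by the extract protocol, 2.1.1 by the submitters' processing notes, 6.1.2 in the file header) on mm10; no source used here names the annotation. The members and gene lists were chosen with earlier results of these data known. Barcodes with 300 or more genes and at most 15% mitochondrial UMIs were kept; library totals were 69144957 to 108363974 UMIs. Each cell was scored per type as mean log(1 + counts per 10000) over its markers, divided by the mean of the 20 highest cells. A gate needed 2 markers, a score of 0.25 or more, and a second-best score at most 0.67 of the best. No doublet caller was run: cells strong for more than 1 type fall in no gate, and the deepest 5% were left out as an alternative. Counts were summed per type and library as CPM with exact Poisson intervals, and shares of cells have exact (Clopper-Pearson) intervals. PCR was corrected by UMIs, so intervals cover counting error. Thinning drew 1000 UMIs from each of 30243 cells without replacement and left out 1890. Named genes were the members, the genes of the fixed lists, the 5 genes most like each member, and the 10 genes of largest difference in the unit with most positive cells; Hist1h2ap, Ly6c1, Pttg1, Apod, Inhba, Spp1, Tagln and the cell-cycle genes were named after their values were seen. Some genes these rules name are not reported here. Scripts (Python 3.11.15, numpy 2.4.6, scipy 1.17.1, pandas 2.3.3) were tested on simulated data.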

Additional observations from a re-analysis of the deposited data

Results flagged for a closer look

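The 931 barcodes that the filter removed, which no comparison used, held ligand UMIs above the 3 counts that a count of 0 allows. Cxcl10 was at 232 CPM (203 to 263) from 237 UMIs in 133 barcodes. Cxcl9 was at 25.4 CPM (16.6 to 37.2) from 26 UMIs, and Cxcl11 at 6.84 CPM (2.75 to 14.1) from 7 UMIs. Over the cells kept the levels were 301, 52.1 and 21.3 CPM. Whether these UMIs come from damaged cells or from free RNA was not tested.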

How the results depend on the processing

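Each level was also computed in the type where it was highest with all libraries pooled: Cxcl9 218 CPM and Cxcl11 50.7 CPM in macrophages, Cxcl10 658 CPM in monocytes and Cxcr3 62.0 CPM in plasmacytoid dendritic cells. A higher minimum of genes, at most 10% mitochondrial UMIs, no filter on barcodes, 1 more marker, the deepest 5% of cells left out and, added after the data were seen, shared barcodes left out kept all these values and the co-detection ratio inside their intervals. Leaving out each library in turn gave 3.63 to 276 CPM for Cxcl9 (3.63 without library 1), 612 to 690 CPM for Cxcl10, 6.36 to 63.0 CPM for Cxcl11 (6.36 without library 1) and 35.3 to 66.0 CPM for Cxcr3 (35.3 without library 4). Thinned to 1000 UMIs, they were 153, 632, 43.8 and 146 CPM; as the mean of each cell's own CPM, Cxcl9 was 178 and Cxcl10 635 CPM. The type with the highest Cxcl9 became endothelial cells under both of these settings, without the deepest cells, and without library 1 or library 2; for Cxcl11 it varied between macrophages, monocytes, endothelial and type 1 dendritic cells, and for Cxcr3 it became type 1 dendritic cells without library 4. Co-detection of Cxcl9 and Cxcl10 went from 1.29 to 1.82 times the product when thinned and to 1.77 with 2 UMIs or more. Of the genes higher in Cxcl10-positive monocytes of library 4, 12 fell to 5 with genes at 100 CPM or more and to 5 with a pseudocount of 50 CPM, of which 4 were type I interferon-stimulated genes each time; another seed for thinning gave 11 genes, 6 of them type I. These 3 settings were chosen after seeing the data. No paired analysis was possible because no barcode suffix is tied to a sample. Types with few cells in a library limit the precision.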
